A study of Mus musculus with 2 samples.

Results

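The genes described here are 8 markers of Schwann cells and other glia, Sox10, S100b, Foxd3, Ngfr, Fabp7, Mbp, Pmp22 and Gfap, measured in RNA of cultured embryonic mouse ureters. They were taken by name from the 29924 gene names of the arrays, with no measured value used, and gave 13 of the 39429 probes and 52 of the 157716 gene spots on each array. Of these 8 genes, 7 were bright enough to be tested, among 22070 genes tested in all. Foxd3 was not.

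The tested ureters carried Tbx18(cre/+), Fgfr1(fl/fl) and Fgfr2(fl/fl), named Fgfr1/2cDKO. The controls carried floxed alleles, Fgfr1(fl/?) and Fgfr2(fl/?), and no Cre is listed for them, so loss of the receptors cannot be told apart from carrying Cre in Tbx18. Cre under Tbx18 acts in the mesenchyme around the ureteric epithelium and its descendants. Ureters were taken at E15.5 from NMRI mice and grown for 6 days on transwell membranes. Each of 2 two-colour arrays held 1 Fgfr1/2cDKO RNA and 1 control RNA from 150 ng of input. The Fgfr1/2cDKO RNA was in Cy5 on array 1, which is labelled male, and in Cy3 on the female-labelled array 2, so replicate, sex label and dye cannot be told apart. The comparison asks which glial transcripts of the cultured ureter differed between the genotypes.

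Schwann cells descend from the neural crest and travel along axons into organs, where they ensheath nerve fibres; satellite and enteric glia of ganglia share that origin. Sox10 acts throughout this lineage, Foxd3 marks its early precursors, and Ngfr and Fabp7 mark precursors and immature or non-myelinating cells. Mbp and Pmp22 encode proteins of compact myelin, and Gfap is an intermediate filament of astrocytes and of non-myelinating and enteric glia. None of these genes is restricted to glia. Pmp22 is also made by fibroblasts and epithelia, and S100b by adipocytes. The Mbp locus also makes the longer golli transcripts, known from cells that make no myelin.

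The 60-base probes decide which transcripts are read, so the last 30 bases of 10 of the 13 are shown 5′ to 3′, as given in the scanner files for mm9. Capitals mark AATAAA, the common polyadenylation signal, which stood in 2 of the 13 probes and in 12.6% of all 39429. Gfap and Pmp22 have several probes each, and Sox10, Foxd3, S100b, Ngfr and Fabp7 have 1. The 3 Mbp probes are not shown. No annotation of mm9 was used, so exon and UTR positions are not given.
Sox10, chr15:78985518-78985577, minus strand: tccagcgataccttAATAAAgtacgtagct
Foxd3, chr4:99325170-99325229, plus strand: gtataaagacgttgggagattttaaatcca
S100b, chr10:75723783-75723842, plus strand: tattcaaatagcgacgttttaaataatcca
Ngfr, chr11:95430211-95430270, minus strand: ttcatgttccctgacacttcccctttgcat
Fabp7, chr10:57508039-57508098, plus strand: cttcggtgtggaggtagaaaattataattc
Pmp22, chr11:62971862-62971921, plus strand: atgtgatcctgcggaaacgcgaatgaggcg
Pmp22, chr11:62972989-62973048, plus strand: gatgcatcaaAATAAAcatcagagtaactc
Gfap, chr11:102748864-102748923, minus strand: cagcctggtggctagtgccttcatattaga
Gfap, chr11:102751813-102751872, minus strand: aggttaggttgtactaatagagctagccta
Gfap, chr11:102752726-102752785, minus strand: acaggctcaccagattgaaaatggagccct

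None of the 8 genes passed the test in either direction. Of the 7 tested, 0 had an adjusted p below 0.05 (limma, Benjamini-Hochberg over all genes), where 3.79% of all genes tested did, 2.03% lower and 1.76% higher in Fgfr1/2cDKO. At an unadjusted p below 0.05 (limma) there were 4, Ngfr, Fabp7, Mbp and Pmp22, beside 4955 of all 22070 genes tested. Ratios are log2 of Fgfr1/2cDKO over control, and means carry the SD between the 2 arrays. Ngfr, Fabp7 and Pmp22 lay below 0 on both arrays, Mbp and Gfap above 0 on both, and Sox10 and S100b on opposite sides of 0. Of all genes tested, 66.5% had the same sign on both arrays. The median of the 7 was -0.05, beside -0.02 over all genes. All 7 were well above background in both genotypes. The 2 arrays limit the precision, and the labels do not say whether the RNAs came from separate litters, so the spread behind each p-value may be only technical.

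**Figure D1:**
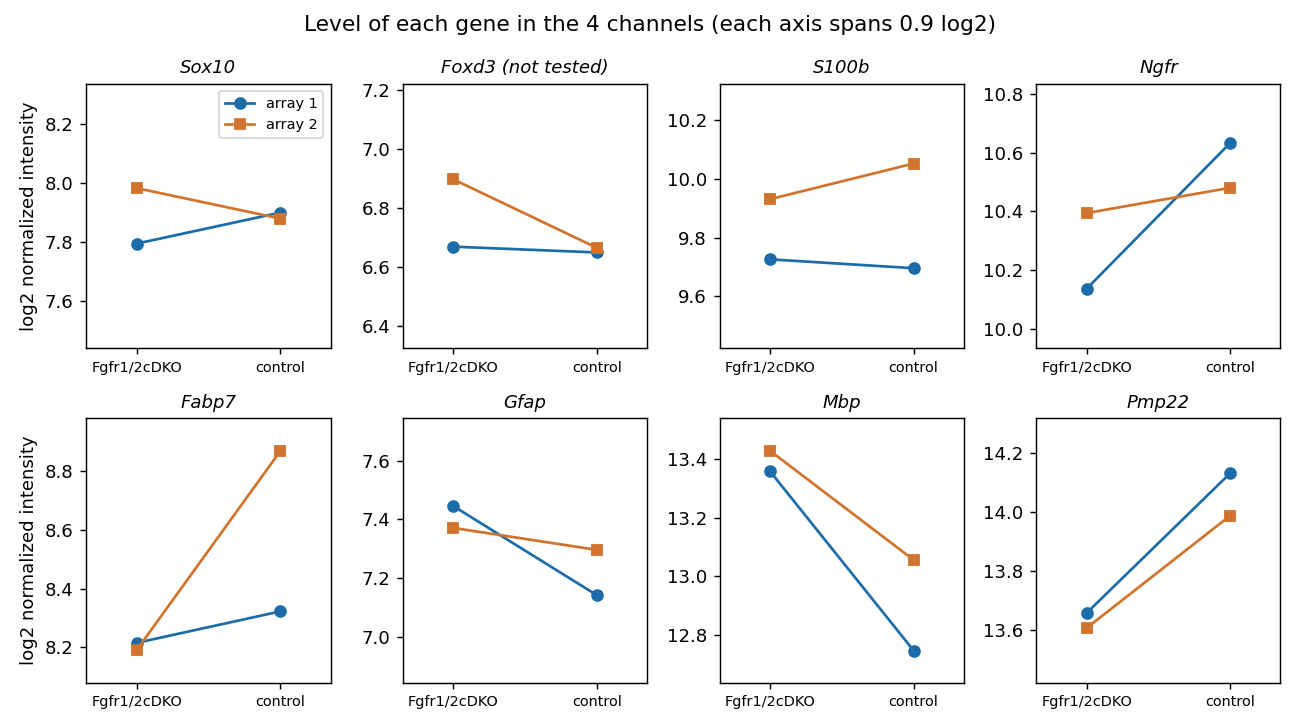
Normalized log2 intensity of each gene in the 4 channels, with Fgfr1/2cDKO left and control right in each panel and a line per array; every panel spans the same range, and levels cannot be compared between panels because each is a different probe. The lines for Pmp22 run upward to control and those for Mbp downward to control on both arrays, while the lines of Sox10 and of S100b tilt in opposite ways.

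Among the lineage regulators, Sox10, the transcription factor that glia of the neural crest need, stood at 7.79 and 7.98 on arrays 1 and 2 in Fgfr1/2cDKO RNA and at 7.90 and 7.88 in control RNA, as log2 normalized intensity. The 4 values overlapped between the genotypes. Its ratio was -0.001 ± 0.15 (SD, n = 2; limma adjusted p = 0.998), with a 95% interval from -0.25 to 0.25, or from 0.839-fold to 1.19-fold. Changes smaller than that cannot be told from 0 here. Larger ones are not excluded, because the spread may be only technical and the background correction pulls the ratios of dim spots towards 0. Its raw signal was low, 230 and 173 in Fgfr1/2cDKO RNA and 278 and 332 in control RNA, above local backgrounds of 99.8 and 26.5 in Fgfr1/2cDKO channels and 28 and 100.25 in control channels.

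Foxd3, a forkhead factor of neural crest and glial precursors, was at the limit of detection. It was well above background in 0 and 4 of 4 spots in Fgfr1/2cDKO RNA and in 3 and 2 of 4 spots in control RNA. Its ratios of 0.02 and 0.23 were therefore not tested. Neither genotype had more than 2 of 4 spots above background on both arrays, so these spots give no order of the genotypes.

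S100b, a calcium-binding protein used to stain Schwann cells, stood at 9.73 and 9.93 in Fgfr1/2cDKO RNA and at 9.70 and 10.05 in control RNA (log2 normalized intensity). Its ratio was -0.05 ± 0.11 (SD, n = 2; limma adjusted p = 0.841), with a 95% interval from -0.29 to 0.20. The genotypes overlapped. Beside it, 6 of 7 adipocyte genes were tested and all 6 were lower in Fgfr1/2cDKO, with a median of -1.95, among them Adipoq, the adipocyte hormone adiponectin, at -2.15 ± 1.41, and Fabp4, the adipocyte fatty acid carrier, at -1.99 ± 1.19. The part of fat cells in the S100b signal was not tested.

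Ngfr, the p75 neurotrophin receptor of precursor and non-myelinating Schwann cells, stood at 10.14 and 10.39 in Fgfr1/2cDKO RNA and at 10.63 and 10.48 in control RNA (log2 normalized intensity). The genotypes did not overlap. The size differed between arrays, with ratios of -0.50 on array 1 and -0.09 on array 2. The mean was -0.29 ± 0.29 (SD, n = 2; limma adjusted p = 0.218), with a 95% interval from -0.58 to -0.003 that is not adjusted for the number of genes. Ngfr binds the neurotrophins together with other receptors. Of 13 neurotrophin genes tested, 0 were lower and 1 higher, Sort1, the sortilin co-receptor for proneurotrophins, at 0.48 ± 0.04 (SD, n = 2; limma adjusted p = 0.0467). Sort1 had 3 tested probes, 1 of them in the opposite direction, and with the probes averaged it stood at 0.14 and did not pass (adjusted p = 0.439).

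Fabp7, the brain-type fatty acid binding protein of Schwann cell precursors and satellite glia, stood at 8.22 and 8.19 in Fgfr1/2cDKO RNA and at 8.32 and 8.87 in control RNA (log2 normalized intensity). The Fgfr1/2cDKO values nearly coincided and the control values were spread, so the ratios were -0.11 (array 1) and -0.68 (array 2). The spots of the arrays did not meet, running from -0.26 to -0.03 on array 1 and from -0.78 to -0.62 on array 2. The mean was -0.39 ± 0.40 (SD, n = 2; limma adjusted p = 0.159). Its adjusted p stayed above 0.05 in all 11 processing alternatives tried, from 0.110 to 0.481. Fewer glial cells and less RNA per cell cannot be told apart in such bulk RNA, here and for every gene below.

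Gfap was read differently by its probes. The probe at chr11:102748864-102748923 stood at 7.45 and 7.37 in Fgfr1/2cDKO RNA and at 7.14 and 7.30 in control RNA (log2 normalized intensity), without overlap. Its ratio was 0.19 ± 0.16 (SD, n = 2; limma adjusted p = 0.354). The probe at chr11:102752726-102752785, listed for another Gfap transcript, had ratios of -0.34 and -0.13 and a mean of -0.24 ± 0.15. That probe was above background in 1 and 1 of 4 spots in Fgfr1/2cDKO RNA, against 4 and 3 of 4 in control RNA, and was kept only through the control RNA. The remaining probe was above background in no more than 1 of 4 spots of any channel. With the probes averaged, Gfap stood at -0.02, so it has no settled direction.

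The myelin genes Mbp and Pmp22 lay nearest to the threshold, on opposite sides of 0. Mbp stood at 13.36 and 13.43 in Fgfr1/2cDKO RNA and at 12.75 and 13.06 in control RNA (log2 normalized intensity). Both Fgfr1/2cDKO values were above both control values. The ratios were 0.61 on array 1 and 0.37 on array 2, a mean of 0.49 ± 0.17 (SD, n = 2; limma adjusted p = 0.0521), or 1.41-fold with a 95% interval from 1.18-fold to 1.68-fold.

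The Mbp value came from a probe on chromosome 18 at 82727929 to 82727988. A probe 36.4 kb upstream gave ratios of 0.47 and 0.27, a mean of 0.37 ± 0.14. The most downstream probe, 14.3 kb beyond the bright one, was above background in 0 of 4 spots in every channel. The Mbp signal of these ureters therefore rests on the upstream and the bright probe. The bright probe is listed for a different Mbp transcript from the upstream and the most downstream probe. Which Mbp transcripts the probes read was not tested, so the signal cannot be assigned to myelin.

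Pmp22, a membrane protein of peripheral myelin, stood at 13.66 and 13.61 in Fgfr1/2cDKO RNA and at 14.13 and 13.99 in control RNA (log2 normalized intensity). Both Fgfr1/2cDKO values were below both control values. The ratios were -0.48 and -0.38, a mean of -0.43 ± 0.07 (SD, n = 2; limma adjusted p = 0.0634), or 0.743-fold with a 95% interval from 0.628-fold to 0.878-fold. The other Pmp22 probe lay in the same direction, with -0.24 and -0.32, a mean of -0.28 ± 0.05. Every spot of both probes was below 0 on both arrays.

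**Figure D2:**
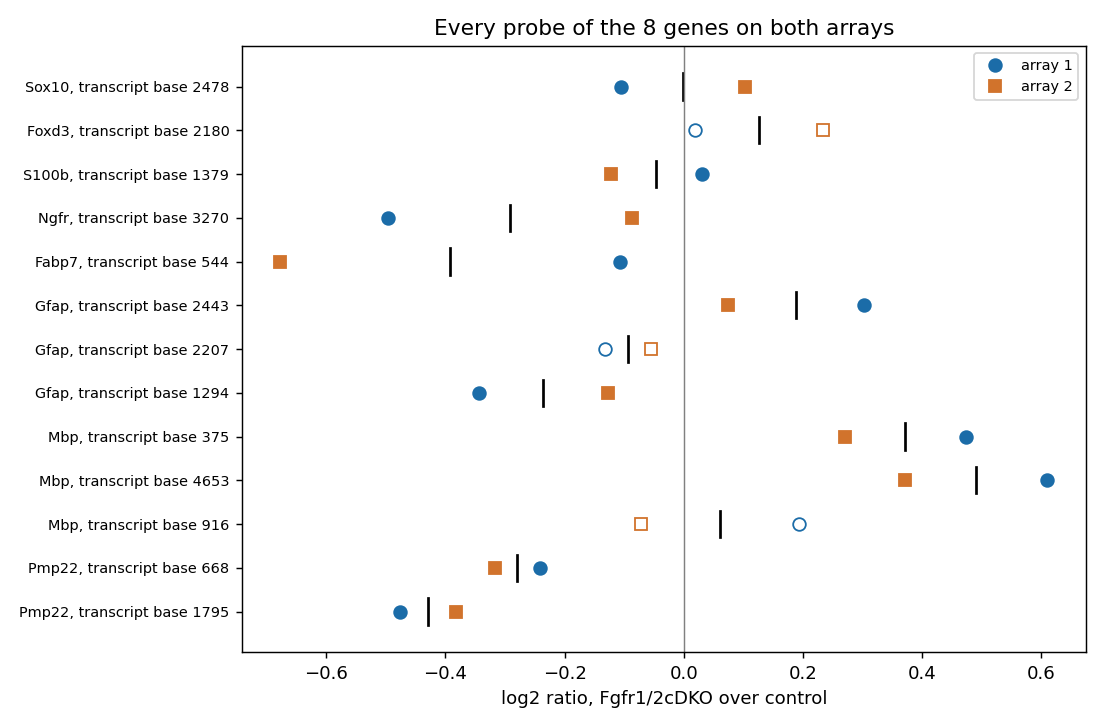
Log2 ratio of Fgfr1/2cDKO over control for each of the 13 probes, named by gene and by the base of the listed transcript at which the probe starts, on array 1 (circles) and array 2 (squares), with the mean as a bar; open symbols are probes that were not tested. Both Pmp22 probes and both tested Mbp probes keep their side of 0, and the Gfap probes fall on both sides.

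In 5 of the 7 genes, Ngfr, Fabp7, Mbp, Pmp22 and Gfap, the Fgfr1/2cDKO channels did not overlap the control channels. The same held for 45% of all genes tested. The mean ratios of Mbp and Pmp22 lay at percentiles 98.1 and 3.43 of all genes tested, and that of Sox10 at 53.8.

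Of 10 Schwann and glial markers, the 8 genes with Erbb3 and Cdh19, 8 were tested and 0 passed. Erbb3, the neuregulin receptor that Schwann cells need, was above background in 0 and 3 of 4 spots in Fgfr1/2cDKO RNA and in 4 and 2 of 4 spots in control RNA, and like Foxd3 was not tested. Cdh19, a cadherin of Schwann cell precursors, gave -0.31 on array 1 and -0.25 on array 2, a mean of -0.28 ± 0.04 (SD, n = 2; limma adjusted p = 0.166). Cdh19 was dim, at 6.52 and 6.76 in Fgfr1/2cDKO RNA and at 6.83 and 7.01 in control RNA (log2 normalized intensity). Its probe was kept through only 1 genotype, so it was not tested where both genotypes had to be well above background. The size of the Cdh19 ratio depended on the processing, from -1.03 with the scanner software's processed signals to -0.11 with median centring. It passed with eBayes trend (limma adjusted p = 0.0451) and in no other alternative that tested it.

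Wider lists of glial genes held some that passed, on both sides of 0, where 3.79% of all genes tested did. Of 17 Schwann lineage regulators, 14 were tested, with 0 lower, 1 higher and a median of 0.24. The 1 was Jun, a transcription factor of immature and injured Schwann cells that most other cells also make, at 0.53 ± 0.07 (SD, n = 2; limma adjusted p = 0.0378). Of 16 myelin genes, 13 were tested, Mbp and Pmp22 among them, with 0 lower, 3 higher and a median of 0.16. These were Mal, a myelin and epithelial proteolipid, at 0.62 ± 0.02 (adjusted p = 0.0245), Fa2h, a lipid hydroxylase of myelin and epithelia, at 0.65 ± 0.18 (adjusted p = 0.0251), and Drp2 at 0.48 ± 0.01 (adjusted p = 0.0465). Drp2, a dystrophin-related protein of myelinating Schwann cells, had 2 tested probes in opposite directions, and with the probes averaged it stood at 0.23 and did not pass (adjusted p = 0.205). Of 7 urothelial genes, 7 were tested, with 1 higher and a median of 0.43. The part of epithelium in the Mal and Fa2h values was not tested.

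Of 19 genes of immature Schwann cells, satellite glia and enteric glia, 18 were tested, with a median of -0.03. Gfra3, the artemin receptor, fell by 0.55 (SD 0.03, n = 2; limma adjusted p = 0.0333), and Postn, a matrix protein also made by fibroblasts, fell by 0.57 (SD 0.04; adjusted p = 0.0295). Kcnj10, a potassium channel of satellite glia that epithelia also carry, was higher at 0.91 ± 0.43 (adjusted p = 0.0228), and Sema3b, a secreted semaphorin, at 0.60 ± 0.12 (adjusted p = 0.0285). Of 7 fibroblast genes, 7 were tested, with 1 lower and a median of -0.07.

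Of 16 genes of the autonomic neurons that such glia accompany, all 16 tested, 7 were lower and 1 higher, with a median of -0.44. The largest fall was in Nefl, a neurofilament, at -1.12 ± 0.01 (SD, n = 2; limma adjusted p = 0.00745). Stmn2, of growing axons, gave -1.004 ± 0.34 (adjusted p = 0.0155), and Dbh, which makes noradrenaline, gave -0.97 ± 0.01 (adjusted p = 0.00999). Prph, Th and Phox2a fell by 0.78, 0.65 and 0.61, with adjusted p from 0.0156 to 0.0248. The gene higher was Uchl1, a neuronal ubiquitin hydrolase, at 0.60 ± 0.14 (adjusted p = 0.0292). All 7 tested glial genes lay inside the range from the lowest to the highest neuron gene, but Uchl1 alone set its upper end. On both arrays, 14 of the 16 neuron genes lay below 0 and 1 above. Of the 7 glial genes, 3 lay below 0 on both arrays and 2 above. The difference between the lists was not tested.

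**Figure D3:**
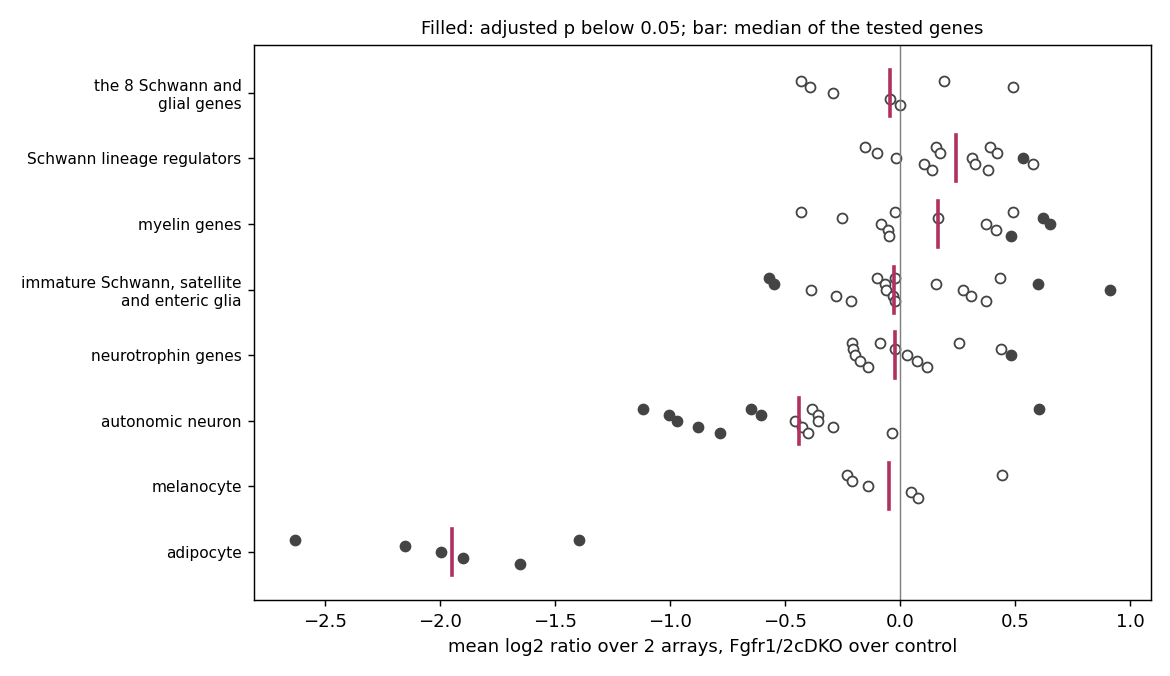
Mean log2 ratio of Fgfr1/2cDKO over control for each tested gene of 8 lists, 1 point per gene; filled points have an adjusted p below 0.05 and the bar is the list's median. The glial genes spread on both sides of 0 with no filled point, while 7 neuron genes and all 6 adipocyte genes are filled on the left.

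Cells that could share glial genes were read too. Of 7 melanocyte genes, which mark cells that also need Sox10, 6 were tested, with 0 lower, 0 higher and a median of -0.05. Dct was above background in no more than 1 of 4 spots of any channel. Of 8 central glia genes, 5 were tested, with 0 lower, 0 higher and a median of -0.12. Endothelial genes had 4 lower of 6 and macrophage genes 3 lower of 6, while smooth muscle genes had 0 of 6 in either direction.

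Of the targeted genes, Fgfr1 stood at -0.33 ± 0.15 (SD, n = 2; limma adjusted p = 0.134) and Fgfr2 was higher in Fgfr1/2cDKO, at 0.56 ± 0.02 (adjusted p = 0.0309). The sources used here do not name the floxed exons, and a probe outside the deleted part checks nothing.

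RefSeq promoter windows (GRCm38.p6, 250 bases before to 50 after a gene's start) were matched for Foxd3, Fabp7, S100b, Pmp22, Ngfr and Gfap. ACAANG, the core that SOX proteins bind, was searched on both strands. It stood once in the window of Fabp7, once in that of S100b and in none of the others. Pmp22 had several windows, so this was 2 of 9 windows, beside 41.2% of all 32851 windows. A match is no binding site, and its absence here says only that these letters are not in the window.

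**Figure D4:**
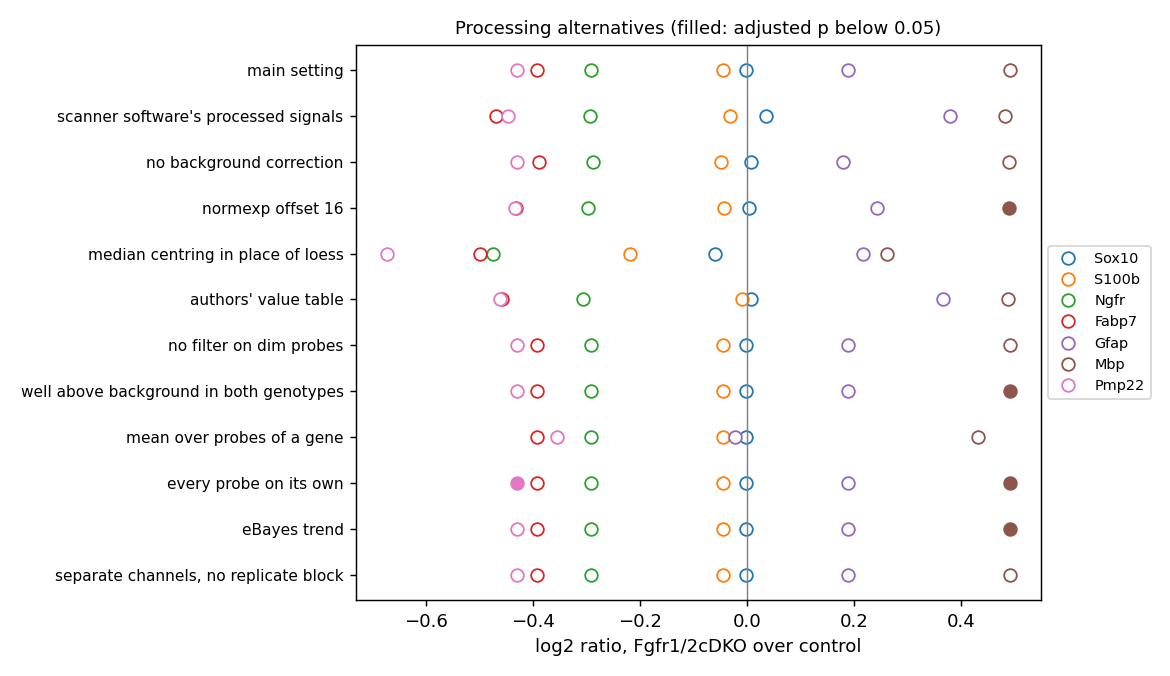
Log2 ratio of Fgfr1/2cDKO over control of the 7 tested genes (colours) under the main setting and 11 processing alternatives; filled points have an adjusted p below 0.05. Mbp is filled in 4 alternatives and Pmp22 in 1, while their values keep their sides of 0 in all.

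The calls for Mbp and Pmp22 depended on the processing. Mbp passed in 4 of 11 alternatives, with adjusted p from 0.0277 to 0.355 over all of them, and Pmp22 in 1 of 11, from 0.0471 to 0.346. The Mbp ratio ran from 0.26 to 0.49 and the Pmp22 ratio from -0.67 to -0.35. The other 5 genes passed in none.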

How the data were processed

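Both two-colour Agilent arrays of ureter RNA lay on 1 slide and shared 1 scan. Spot intensity in the deposited files is a mean signal beside the median of its local background. Per the submitters' processing notes, the software was Agilent Feature Extraction 10.7.3.1. The authors' deposited value table holds a score, a signed fold change per probe; its direction, Fgfr1/2cDKO over control, was found against the scanner values, and its averaging and centring are not known. Flags for outlier spots and for spots well above background come from the same software, per the file headers.

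Normexp (offset 50) corrected the background and pulls the ratios of dim spots towards 0. Loess within each array followed, with limma 3.58.1 in R 4.3.3, outlier spots were left out and the 4 spots of a probe averaged. A probe was tested if 1 genotype or both had a share above 0.5 of its spots well above background on each array, and a gene took its brightest probe. The test against 0 was limma's moderated one (lmFit, eBayes), two-sided, and p-values were adjusted by Benjamini-Hochberg over 22070 genes, with calls at 0.05. Each gene had 1 residual degree of freedom beside 7.45 from the prior, so adjusted p-values rest largely on the spread over all genes. Channel levels were scaled between arrays after loess and serve as description. Gene names came from a RefSeq table of a later assembly, by accession for 28328 of 39429 probes and by symbol for 3400, while 7701 kept the file's name. Between 70.3% and 78.3% of gene spots were well above background per channel. The fit was tested on simulated data, where the share of false calls varied between runs, so adjusted p-values near 0.05 are imprecise.

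The glial genes, the gene lists and the tests were chosen with earlier results of these data known. The 8 genes are named with every probe; of the glial, neurotrophin and neuron lists, the genes that passed are named, with 2 further Schwann markers, and of the adipocyte list 2 markers. The other lists are given by counts and medians. Some genes that this rule names are not reported here. Alternatives changed how background was corrected, how arrays were normalised, the filter, the probe rule and the variance model, or took the value table or separate channels.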

Additional observations from a re-analysis of the deposited data

Results flagged for a closer look

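Sox10 and S100b lay on opposite sides of 0 on the arrays labelled male and female. Such disagreement was common, as only 66.5% of all genes tested had the same sign on both arrays. The SD between arrays was 0.15 for Sox10 and 0.11 for S100b, beside a median of 0.11 over all genes. Sox10 had a log2 ratio of Fgfr1/2cDKO over control of -0.11 on array 1 (male label) and 0.10 on array 2 (female label). S100b had 0.030 on array 1 and -0.12 on array 2. Each label has 1 array, so the difference was not tested, and sex label, replicate and dye cannot be told apart.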

How the results depend on the processing

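The count of genes called, 836, was 10 with the scanner software's processed signals, 170 with the authors' value table, 1471 with every probe on its own and 1415 with eBayes trend. With median centring in place of loess it was 0 by limma, with 5584 genes at an unadjusted p below 0.05. That setting put the all-gene median at -0.14 and the glial median at -0.22. For pairing, separate channels with no replicate block called 3 genes, against 836 with each array as its own pair. Glial genes called higher were 1 in place of 0, Mbp, with a normexp offset of 16 (adjusted p = 0.0447), with probes required well above background in both genotypes (0.0399), with every probe on its own (0.0349) and with eBayes trend (0.0277). Glial genes called lower were 1, Pmp22, with every probe on its own (0.0471). The glial median of -0.05 became -0.00996 with the value table and -0.0233 with no filter, and lay between -0.106 and -0.086 with either replicate left out. Sox10, at -0.001, turned to 0.035 with processed signals and to 0.00833 with no background correction, 0.00442 with the offset of 16 and 0.0081 with the value table. Gfap turned to -0.0232 with probes averaged. Processed signals, median centring and separate channels called 0 genes of the neuron, adipocyte, neurotrophin and 3 wider glial lists. The value table called 5 neuron genes lower in place of 7, 1 adipocyte gene in place of 6 and 0 of the neurotrophin and wider glial lists, and no filter on dim probes called 3 adipocyte genes. Neuron genes called lower were 7 in the other 7 alternatives. The cause of these changes was not tested. With 1 array left out no residual degree of freedom remains, so those values have no test. Dim signals limit Foxd3, Erbb3, Cdh19 and Gfap.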
